A study of Mus musculus with 6 samples.

Results

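The ligands and receptors of the tumour necrosis factor (TNF) superfamily, with the ectodysplasin receptor *Edar* among them, were followed in EpH4 cells through exposure to TGFβ1 and its removal. Members were taken by symbol, that is, every gene of the deposited table named *Tnfsf* or *Tnfrsf* with a number, and *Tnf*, *Fas*, *Fasl*, *Ltb*, *Ltbr*, *Cd40*, *Ngfr*, *Eda*, *Edar*, *Edaradd*, *Eda2r* and *Relt*. This gave 36 of the 17428 genes, which were 10 ligands, 7 receptors with a death domain, 2 decoy receptors, 16 other receptors and the adaptor *Edaradd*. EpH4 is a near-normal, immortalized mouse mammary epithelial cell line, and all libraries come from this one line without genetic manipulation. E cells were grown in normal medium with serum and insulin, M cells in the same medium with TGFβ1 for 7 days, and RE cells for 7 days with TGFβ1 and then for another 4 days in normal medium. Each stage has 2 biological replicates, and what separates the replicates beyond that is not given, so the p-values measure the spread between these libraries only.

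Ligands of this superfamily are mostly trimers that are anchored in the membrane or shed from it, and they gather their receptors into clusters on the target cell. Receptors with a cytoplasmic death domain can pass the signal to caspases or to NF-κB, the other signalling receptors bind TRAF adaptors directly, and decoy receptors bind a ligand without passing it on. The ectodysplasin branch, in which *Eda* binds *Edar* and the adaptor *Edaradd* links the receptor to NF-κB, is needed for the development of hair, teeth, sweat glands and mammary glands. RANK (*Tnfrsf11a*) and its soluble antagonist osteoprotegerin (*Tnfrsf11b*) are known regulators of mammary gland growth as well as of bone.

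Values are coverage, that is, sequenced bases summed per gene, given as ppm, the bases of a gene per megabase of its library after TMM normalization, and 50 bases are called 1 read's worth. The libraries held between 35782513 and 47928557 reads' worth, so that 3 reads' worth, taken as the floor, corresponds to 0.0632 to 0.0787 ppm. The floor and the counting intervals below cover counting error only. The E replicates were less alike than the others, with an SD across genes of 0.558 for the log2 difference between replicates, against 0.318 for M and 0.309 for RE. Genes were called where the log2 fold change exceeded 1 up or down with a Benjamini-Hochberg adjusted p under 0.01 in limma over all 13893 genes tested, on the scale of log2(ppm + 0.1), which understates the change of low genes. A positive log2 fold change is higher in M in E vs. M and higher in RE in the other 2 comparisons. The comparisons share libraries, so they are not independent of each other. Each library was also left out in turn, which leaves 1 sample in its stage. All genes called then rose in number in each comparison without an E library and fell without an M or an RE library. A call lost that way is therefore by itself no trait of its gene. Of the 6 epithelial markers in the table, *Cdh1*, *Krt8*, *Krt18*, *Krt14* and *Ocln* were above the floor in every library, and *Krt5* was at 0.0787 ppm, the floor, in one E library and under it, at 0.0479 ppm, in one M library. The tight junction gene *Ocln* was called lower in M than in E and higher in RE than in M, *Krt14* higher in M than in E, *Krt8* and *Krt14* lower in RE than in M and *Krt18* lower in RE than in E. The 7 mesenchymal markers summed to 2414 and 5360 ppm in E, 18430 and 18320 in M and 11630 and 10640 in RE, and 6 of them were called higher in M than in E, 2 lower in RE than in M and 4 higher in RE than in E. Nearly all of this sum is *Fn1* (2377 and 5318 ppm in E, 18120 and 18050 in M, 11450 and 10460 in RE), and *Twist1*, which was not called, had a log2 fold change of −0.83 from E to M.

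Of the 36 members, 28 had enough coverage to be tested and 12 were called in at least 1 comparison. That share was not counted over all genes, so whether it is particular to the family is not known. In E vs. M, 10 members were called, 5 higher and 5 lower in the M cells, which is 35.7% of the members tested beside 16.8% of all genes tested. By direction, 17.9% of the members were called each way, beside 8.41% of all genes higher and 8.35% lower. In M vs. RE, 3 members were called higher and 3 lower (10.7% each, beside 7.92% and 4.79% of all genes), which together is 21.4% of the members beside 12.7% of all genes. In E vs. RE, 3 were called higher and 2 lower (10.7% and 7.14%, beside 5.92% and 3.16%), together 17.9% beside 9.08%. The filter on coverage lets a gene such as *Cd40* in through the M libraries alone, so these shares describe the family and are not a test of it. The median log2 fold change of the members tested was 0.20 for E vs. M, 0.11 for M vs. RE and 0.28 for E vs. RE, where that of all genes was 0.00, −0.02 and 0.00. The 2 groups compared did not overlap for 18, 25 and 19 of the 28 members (64.3%, 89.3% and 67.9%), beside 71.1%, 78.6% and 67% of all genes. In bulk libraries such as these, a change in the share of cells that express a gene and a change in its RNA per cell cannot be told apart.

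The receptor *Edar* had the largest log2 fold changes of all members tested in E vs. M and M vs. RE. Its coverage was 7.99 and 9.19 ppm in the E libraries, 0.0730 and 0.0991 ppm in the M libraries and 55.3 and 42.0 ppm in the RE libraries, so that the groups did not overlap and the M cells were near the floor, at 3.06 and 4.06 reads' worth. The log2 fold change was −5.55 for E vs. M (standard error 0.219, limma adjusted p = 1.39e-05), 8.02 for M vs. RE (limma adjusted p = 7.38e-06) and 2.48 for E vs. RE (limma adjusted p = 0.000686). In reads' worth the E cells were 101-fold above the M cells (95% exact binomial interval of the count ratio 48.9 to 253) and the RE cells 579-fold above them (281 to 1441). The RE mean of 48.7 ppm was 5.67 times the E mean of 8.59 ppm. The calls against the M cells held under every setting that tested the gene. The call in E vs. RE was lost without either RE library, as were most such calls of all genes. Its log2 fold change was 2.28 without the first and 2.68 without the second. None of the 50-base words of the *Edar* transcripts was found in transcripts of another gene of GENCODE M21.

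The 250 bases before the start of *Edar* are shown because it is the member that fell and returned most. They are set beside those of *Tnfrsf9*, which moved the opposite way in both comparisons. The sequences are RefSeq's on GRCm38.p6, a newer build than the NCBI-m37 to which the authors mapped, and are written 5′ to 3′ on the strand of the gene. Of the 6 members that were called in E vs. M and called back in M vs. RE, these were the 2 with a listed window that ends at the outer edge of the gene. *Edar* lies on the minus strand at chr10:58675697-58675946 and *Tnfrsf9* on the plus strand at chr4:150919905-150920154. Capitals mark matches on either strand to CACCTG, the E-box letters bound by Zeb and Snail factors, to TGANTCA (AP-1) and to CAGACA (the Smad CAGA box), no match of which overlapped another here.
*Edar*: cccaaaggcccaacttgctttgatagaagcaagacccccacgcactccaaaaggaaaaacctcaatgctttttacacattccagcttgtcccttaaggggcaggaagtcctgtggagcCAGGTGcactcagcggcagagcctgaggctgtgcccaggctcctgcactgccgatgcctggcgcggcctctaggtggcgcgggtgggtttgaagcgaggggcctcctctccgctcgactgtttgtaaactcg
*Tnfrsf9*: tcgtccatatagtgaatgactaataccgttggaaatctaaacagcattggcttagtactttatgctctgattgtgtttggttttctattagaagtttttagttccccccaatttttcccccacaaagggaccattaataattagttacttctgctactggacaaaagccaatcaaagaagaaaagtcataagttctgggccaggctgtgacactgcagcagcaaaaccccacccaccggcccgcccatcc
The *Edar* window held 1 match, to the E-box on the opposite strand, whose first base in the printed sequence lies 132 bases before the start. The *Tnfrsf9* window shown held none of the 3 motifs, and a second window listed for *Tnfrsf9*, farther downstream, held 1 match to TGANTCA. Of all 32851 windows of this length, 17.2% held CACCTG, 6.75% TGANTCA and 17.1% CAGACA, and among the 34 windows listed for 30 members the shares were 26.5%, 11.8% and 11.8%. A match in such a window describes its letters and was not tested as a binding site.

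The partners of *Edar* that could be tested were not called in any comparison. *Eda*, the ligand, was at 1.07 and 2.84 ppm in the E libraries, 1.96 and 1.78 in the M libraries and 1.56 and 1.25 in the RE libraries, with log2 fold changes of 0.09 (standard error 0.420) for E vs. M and −0.31 for E vs. RE. The E libraries were on either side of the others, and the sign of both differences depended on which E library was used. *Eda2r*, the receptor for the other splice form of ectodysplasin, was at 3.42 and 5.64 ppm in E, 4.54 and 5.15 in M and 3.14 and 2.96 in RE, and was not called in any comparison (adjusted p = 0.707, 0.101 and 0.173 by limma in E vs. M, M vs. RE and E vs. RE). *Edaradd*, the adaptor that *Edar* uses, was under the coverage needed for a test, with at most 6.42 reads' worth in a library, and was listed at 0 in 1 M and 1 RE library. Per kb of exon, the receptor was at 13.4 ± 2.58 ppm in the RE cells and the adaptor at 0.0035 ± 0.00496 ppm (SD, n = 2).

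**Figure D1:**
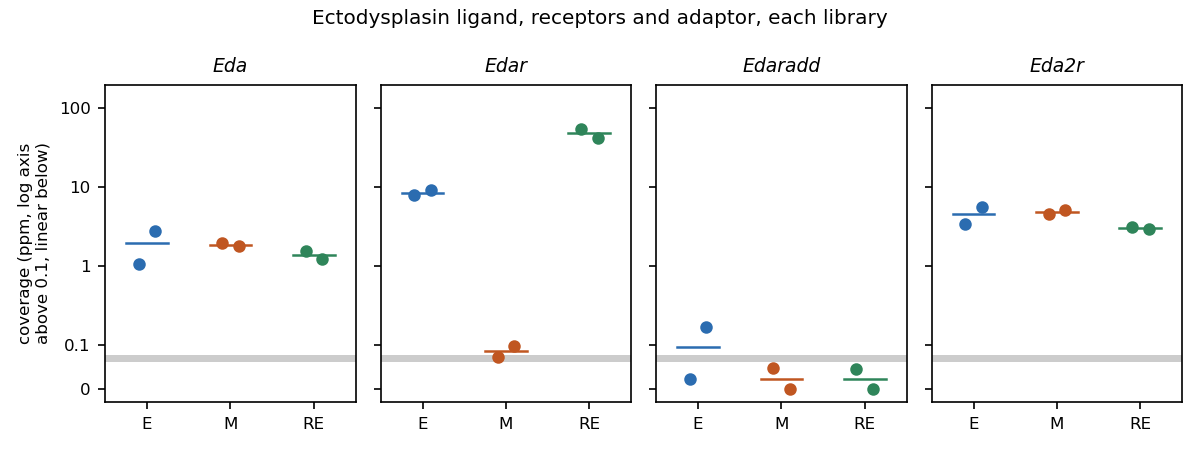
Coverage of the ectodysplasin ligand *Eda*, its receptors *Edar* and *Eda2r* and the adaptor *Edaradd* in each of the 6 libraries (points, in ppm on an axis that is logarithmic above 0.1 and linear below), with the mean of each stage as a line and the range of the floor of 3 reads' worth as a grey band. *Edar* falls to the floor in M and rises above E in RE, while *Eda* and *Eda2r* stay between 1.07 and 5.64 ppm and *Edaradd* stays under 0.17 ppm.

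Genes around this branch were taken from a list of 10 inputs and targets, of which 8 were in the table and 5 had enough coverage to be tested. *Lef1*, *Dkk4* and *Fgf20*, which act in hair and mammary placodes, were at or under the floor in every library. *Pthlh*, which encodes a hormone made by the mammary bud, was the one gene of the list that was called. It was at 1.27 and 0.524 ppm in E, 13.5 and 14.3 in M and 1.66 and 2.06 in RE, high in the stage in which *Edar* was low, with log2 fold changes of 3.92 for E vs. M (limma adjusted p = 0.000249) and −2.84 for M vs. RE (limma adjusted p = 0.00128). *Wnt10a*, *Wnt10b*, *Cxcl10* and *Ctnnb1*, the gene for β-catenin, were not called, and their log2 fold changes lay between −0.69 and 0.74. The median of the 5 genes was −0.01, 0.43 and 0.67 for E vs. M, M vs. RE and E vs. RE.

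Among the ligands, *Tnfsf12* and *Tnf* were called in E vs. M, in opposite directions. *Tnfsf12* encodes TWEAK, a cytokine of tissue repair, and was at 13.6 and 7.81 ppm in the E libraries, 1.29 and 0.681 in the M libraries and 16.4 and 12.5 in the RE libraries. Both M libraries were far below all others, whereas E and RE overlapped. The log2 fold change was −3.32 for E vs. M (standard error 0.360, limma adjusted p = 0.00049), 3.79 for M vs. RE (limma adjusted p = 0.000317) and 0.47 for E vs. RE (limma adjusted p = 0.357), and the calls held in all 18 alternative settings. Of the 50-base words of its transcripts, 46.8% also occur in *Tnfsfm13*, the readthrough of *Tnfsf12* into the neighbouring *Tnfsf13*, and which of these RNAs the coverage comes from cannot be told. Its receptor Fn14 (*Tnfrsf12a*) was at 71.5 and 91.6 ppm in E, 89.4 and 84.1 in M and 50.01 and 57.0 in RE and was not called in any comparison. The RE libraries of the receptor lay below all others (log2 fold change −0.70, limma adjusted p = 0.0143 for M vs. RE).

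*Tnf*, the ligand that gave the family its name, rose with TGFβ1. It was at 0.936 and 0.696 ppm in E, 3.02 and 3.00 in M and 2.69 and 2.27 in RE, with both treated stages above both E libraries. Its log2 fold change was 1.78 for E vs. M (standard error 0.242, limma adjusted p = 0.00135), −0.27 for M vs. RE (limma adjusted p = 0.43) and 1.5 for E vs. RE (limma adjusted p = 0.0049), so it was still called 4 days after TGFβ1 removal. The call in E vs. RE was lost in 8 of 18 settings. These included leaving out each M library (log2 fold change 1.5 for both) and each RE library (1.39 without the first and 1.62 without the second). The call in E vs. M was lost without either M library, at log2 fold changes of 1.78 and 1.79. Per kb of exon, *Tnf* was at 0.498 ± 0.103 ppm in E, and its receptor *Tnfrsf1a*, which carries a death domain, at 62.0 ± 0.855 ppm (SD, n = 2). By library *Tnfrsf1a* was at 135 and 132 ppm in E, 131 and 120 in M and 177 and 175 in RE, and *Tnfrsf1b*, which has no death domain, was at 27.1 and 34.4, 31.4 and 29.2, and 37.2 and 45.1 ppm. Neither was called. For both genes the RE libraries were above all others, by 0.49 (limma adjusted p = 0.0191) and 0.44 (adjusted p = 0.0927) on the log2 scale over M.

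*Tnfsf9*, the ligand of the costimulatory receptor encoded by *Tnfrsf9*, was at 6.45 and 5.34 ppm in E, 5.14 and 4.34 in M and 1.96 and 2.67 in RE, and was called lower in RE than in E (log2 fold change −1.32, standard error 0.232, limma adjusted p = 0.00658). The call was lost in 9 of 18 settings, among them the leaving out of any M or RE library, at log2 fold changes from −1.53 to −1.11. The log2 fold change in M vs. RE, −1.02, missed the adjusted p (0.0151 by limma), and it was −1.01 and −1 without the first and the second E library. Overlapping transcripts on the other strand share 8.8% of its exon bases. The receptor *Tnfrsf9* had another course. It was at 1.94 and 2.08 ppm in E, 7.74 and 7.77 in M and 3.13 and 2.78 in RE, with log2 fold changes of 1.90 for E vs. M (standard error 0.190, limma adjusted p = 0.000347), which was called in all 18 settings, and −1.36 for M vs. RE (limma adjusted p = 0.00187). The second call was lost without any 1 of the M and RE libraries, at log2 fold changes from −1.44 to −1.28.

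Of the other ligands, 3 were tested and 3 fell under the coverage needed. *Tnfsf10* (TRAIL), *Tnfsf13b* (BAFF) and *Tnfsf15* (TL1A) had group means between 0.156 and 0.883 ppm and were not called, and *Fasl*, *Ltb* and *Tnfsf18* had at most 8.62 reads' worth in a library. *Tnfsf15* was uneven in the E cells, with 0.145 ppm in one library and 1.17 in the other. Without the first E library its log2 fold change was −2.30 in E vs. M and −1.71 in E vs. RE. With both it was −1.12 and −0.53, not called (limma adjusted p = 0.233 and 0.598). Its receptor DR3 (*Tnfrsf25*) is described next.

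Of the 7 receptors with a death domain, 6 were tested, and *Tnfrsf25* and *Edar* were called. *Tnfrsf25* was at 3.62 ppm in both E libraries, 1.25 and 1.26 in the M libraries and 7.79 and 5.48 in the RE libraries, without overlap. The log2 fold change was −1.46 for E vs. M (standard error 0.230, limma adjusted p = 0.0025) and 2.30 for M vs. RE (limma adjusted p = 0.000412), and 0.83 for E vs. RE, which was not called (limma adjusted p = 0.0323). The call in M vs. RE held in all settings, and that in E vs. M was lost without the first (log2 fold change −1.45) or the second M library (−1.46). *Tnfrsf25* and *Edar* thus shared the order M below E below RE in every library, at very different sizes of change.

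*Fas*, *Tnfrsf10b* (the mouse TRAIL death receptor) and *Tnfrsf21* (DR6) were well covered and were not called. *Fas* was at 33.6 and 24.4 ppm in E, 42.7 and 52.6 in M and 53.9 and 47.6 in RE, above E in all treated libraries, with log2 fold changes of 0.73 for E vs. M and 0.82 for E vs. RE (adjusted p = 0.021 and 0.0188 by limma). *Tnfrsf10b* was at 49.4 and 46.3, 70.6 and 68.2, and 54.3 and 52.7 ppm, with 0.54 for E vs. M (limma adjusted p = 0.011). *Tnfrsf21* was highest in RE, at 45.9 and 39.3 ppm, against 20.3 and 29.7 in E and 31.3 and 28.9 in M (0.79 for E vs. RE, limma adjusted p = 0.0246). In E vs. RE the log2 fold change was 1.05 for *Fas* without the first E library and 1.04 for *Tnfrsf21* without the second. *Ngfr*, the p75 neurotrophin receptor, had at most 7.84 reads' worth in a library.

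Among the 13 other receptors tested, *Cd40*, *Relt*, *Tnfrsf9* and *Tnfrsf14* rose in the M cells, and *Tnfrsf18* and *Tnfrsf26* fell. *Cd40*, which is best known from B cells and macrophages but also occurs in epithelia, was listed at 0 in both E and both RE libraries and at 0.888 and 0.8501 ppm, or 37.2 and 34.8 reads' worth, in the M libraries. Against the floor of 3 reads' worth per library, the M cells were at least 11.7-fold higher than the E cells and at least 13.3-fold higher than the RE cells. The fitted log2 fold change of 3.28 for E vs. M (limma adjusted p = 0.00049), and of the same size in the other direction in M vs. RE (adjusted p = 0.000603), depends on the pseudocount, and with 1 ppm added it was 0.90, under the fold threshold. Without either M library *Cd40* did not pass the coverage filter. Of 13 immune markers, 9 were in the table, and *Ptprc* and *Cd3e*, which mark leukocytes and T cells, were at or under the floor in every library. *Cd68*, a macrophage marker, was at 5.14 to 9.25 ppm over all libraries and was not called. *Itgam* was at 0.0463 and 0.0525 ppm in E and 0.143 to 0.206 in M and RE, *Cd8a* was listed at 0 in E and at 0.0496 to 0.107 in M and RE, and *Itgax* and *Emr1* were at most at 0.215 and 0.0977. The summed level of the list was 33.3 and 37.5 ppm in the M libraries against 6.86 to 10.8 in the E and 7.54 to 7.88 in the RE libraries, nearly all of the difference being *Csf1r* (25.7 and 30.1 ppm in M, 1.28 to 2.07 elsewhere). The part of immune cells in the *Cd40* result was not tested beyond these values.

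*Relt*, a receptor of the family that was found in lymphoid tissue, was at 5.56 and 5.18 ppm in E, 25.6 and 24.7 in M and 7.81 and 9.25 in RE. Both M libraries lay above all others, with log2 fold changes of 2.21 for E vs. M (standard error 0.164, limma adjusted p = 9.76e-05) and −1.55 for M vs. RE (limma adjusted p = 0.000526). The rise was called in all 18 settings, and the fall was lost without the first M (log2 fold change −1.54) or the first RE library (−1.43). In RE it was still 1.59 times the E mean, which was not called (log2 fold change 0.65, limma adjusted p = 0.0234). *Tnfrsf14*, the herpesvirus entry mediator, was at 0.845 and 0.613 ppm in E, 2.81 and 3.12 in M and 1.46 and 1.30 in RE, again with M above the others. It was called in E vs. M (1.9, standard error 0.253, limma adjusted p = 0.00124), except without the first (1.98) or second M library (1.83). Its difference between M and RE (−1.05) missed the adjusted p (0.0186 by limma). That difference was −1.05 and −1.04 without the first and the second E library. In E vs. RE the log2 fold change was 0.85 and not called, and 1.04 and 0.63 without the first and the second E library.

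*Tnfrsf26* was at 1.25 and 1.504 ppm in E, 0.0716 and 0.0488 in M and 0.243 and 0.144 in RE, so that both RE libraries were still below both E libraries after TGFβ1 removal. In reads' worth the E cells were 22.6-fold above the M cells (95% exact binomial interval 9.41 to 71) and 6.94-fold above the RE cells (4.20 to 12.1), from 5 and 18 reads' worth in all in the M and RE libraries. On the log2 scale the fold change was −3.20 for E vs. M (limma adjusted p = 0.00045) and −2.35 for E vs. RE (limma adjusted p = 0.00347). The second call was lost in 7 of 17 settings, which included each M or RE library left out (log2 fold change from −2.59 to −2.1). *Tnfrsf23*, a decoy receptor for TRAIL that lies in the same mouse cluster, was not called, with 7.12 and 13.7 ppm in E, 12.2 and 17.0 in M and 5.80 and 6.10 in RE. The difference between M and RE was −1.26 (limma adjusted p = 0.021), and −1.26 and −1.25 without the first and the second E library. In E vs. RE the log2 fold change of *Tnfrsf23* was −0.72 and not called, and −1.19 without the first E library. An antisense gene shares 11.1% of its exon bases, and 19.3% of its 50-base words are shared with other genes, mostly *Tnfrsf22*, so its coverage is uncertain.

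*Tnfrsf18*, the costimulatory receptor GITR, was at 1.11 and 1.34 ppm in E, 0.375 and 0.387 in M and 0.992 and 0.922 in RE. It was called lower in E vs. M (−1.45, standard error 0.263, limma adjusted p = 0.00453). This call was lost in 7 of 18 settings, among them the leaving out of each M (log2 fold change −1.44 and −1.47) or RE library (−1.45 for both). Its difference between M and RE, 1.14, was not called (limma adjusted p = 0.0159), and was 1.13 and 1.14 without the first and the second E library. An antisense gene shares 25.5% of its exon bases, and whether the reads keep the strand is not given in the sources used here. *Tnfrsf4* (OX40), its neighbour in the genome with no other coding gene between them, was between 2.36 and 3.12 ppm in all libraries, with log2 fold changes of −0.14 and 0.13 from E to M and from M to RE. The remaining receptors of this class were not called: *Ltbr*, the lymphotoxin β receptor, was lowest in M (148 and 140 ppm in E, 113 and 106 in M, 139 and 145 in RE, log2 fold change −0.40, limma adjusted p = 0.0329 for E vs. M). *Tnfrsf13c*, the BAFF receptor, was at 0.0231 and 0.184 ppm in E, 0.304 and 0.236 in M and 0.495 and 0.590 in RE. E vs. RE was not called (log2 fold change 1.78, limma adjusted p = 0.0251), and the log2 fold change without the second E library was 2.36. *Tnfrsf11a* (RANK) was between 0.286 and 0.541 ppm, highest in M, and *Tnfrsf8*, *Tnfrsf17* and *Tnfrsf19* had at most 5.14 reads' worth in a library.

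Osteoprotegerin (*Tnfrsf11b*), the soluble decoy that keeps the RANK ligand from its receptor, was the member raised in RE over E that did not pass the thresholds in E vs. M. It was at 10.6 and 10.4 ppm in E, 22.9 and 26.6 in M and 86.1 and 41.0 in RE, with the same order of stages in every library and the RE libraries far apart. The log2 fold change was 2.49 for E vs. RE (standard error 0.313, limma adjusted p = 0.00205). It was 1.23 for E vs. M (limma adjusted p = 0.0179) and 1.27 for M vs. RE (adjusted p = 0.0204), which were above the fold threshold and not called. Leaving out either E library brought both under the threshold, at limma adjusted p-values of 0.00348 and 0.00288 in the first and 0.000663 and 0.00044 in the second comparison, as did the second RE library, at 0.00453 and 0.00408, and the first RE library did so for E vs. M, at 0.00474. Without the first RE library the difference in E vs. RE was 1.96 and no longer called (limma adjusted p = 0.0153), and without the second it was 3.03.

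**Figure D2:**
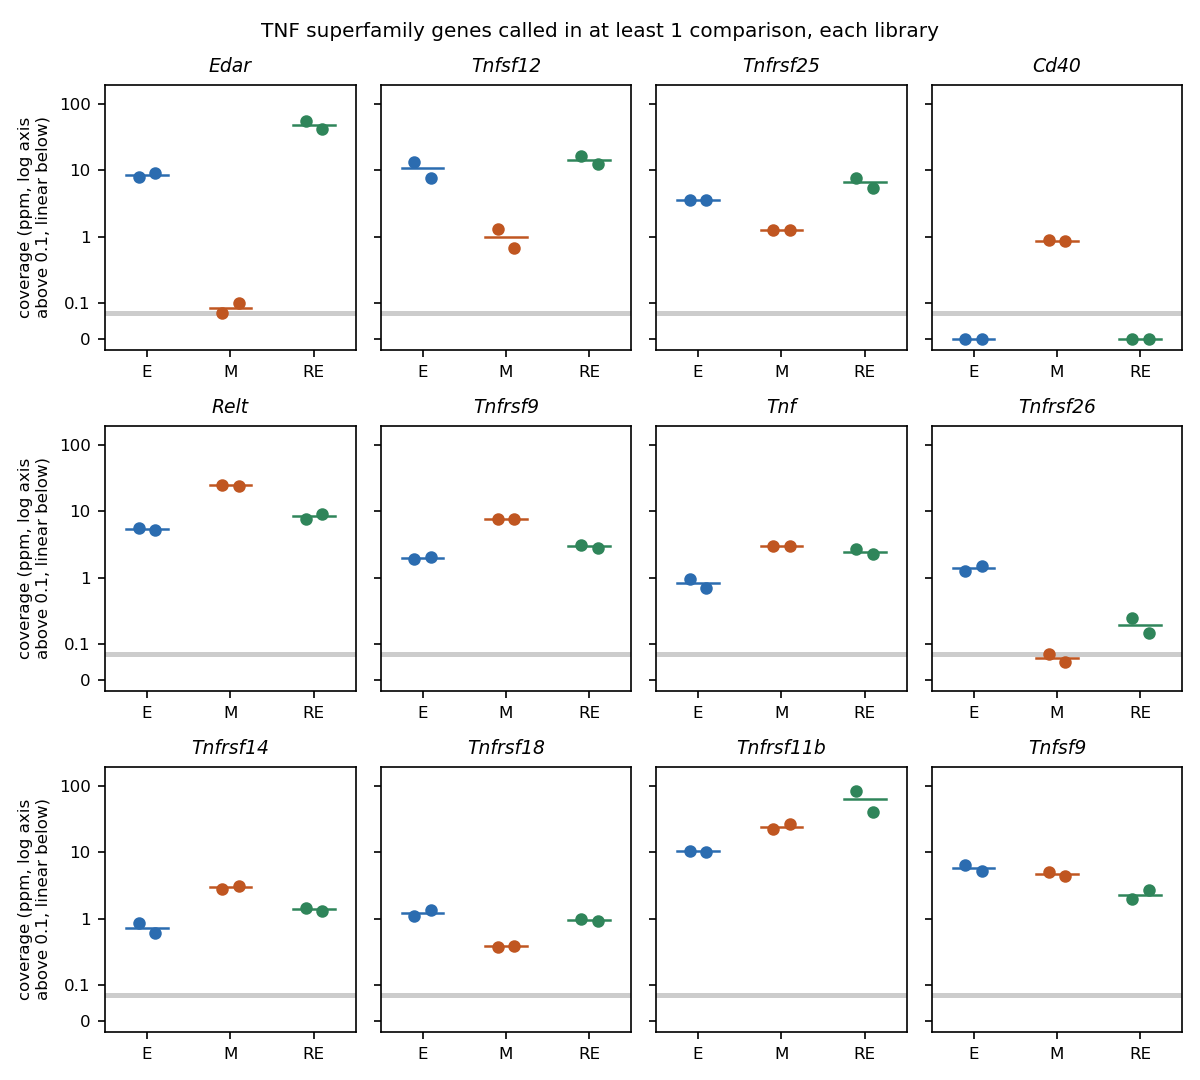
Coverage of the 12 members called in at least 1 comparison in each of the 6 libraries (points, in ppm on an axis that is logarithmic above 0.1 and linear below), with the mean of each stage as a line and the floor of 3 reads' worth as a grey band. *Edar*, *Tnfsf12*, *Tnfrsf25*, *Tnfrsf26* and *Tnfrsf18* are lowest in M, and *Cd40*, *Relt*, *Tnfrsf9* and *Tnfrsf14* are highest in M. *Tnf* is high in M and RE, *Tnfrsf11b* is highest in RE, and *Tnfsf9* is lowest in RE.

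Placed by their courses, 6 of the 10 members called in E vs. M were called back in M vs. RE. The same share was not counted over all genes, so whether it is particular to the family is not known. *Edar*, *Tnfsf12* and *Tnfrsf25* fell and returned, and *Cd40*, *Relt* and *Tnfrsf9* rose and returned. *Tnf* and *Tnfrsf26* were on the same side of E in RE as in M and called there, *Tnfrsf14* and *Tnfrsf18* were called in E vs. M alone, and *Tnfrsf11b* and *Tnfsf9* in E vs. RE alone. *Edar* was the one member called in all 3 comparisons, and the one that was called on the other side of E after TGFβ1 removal than during exposure.

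**Figure D3:**
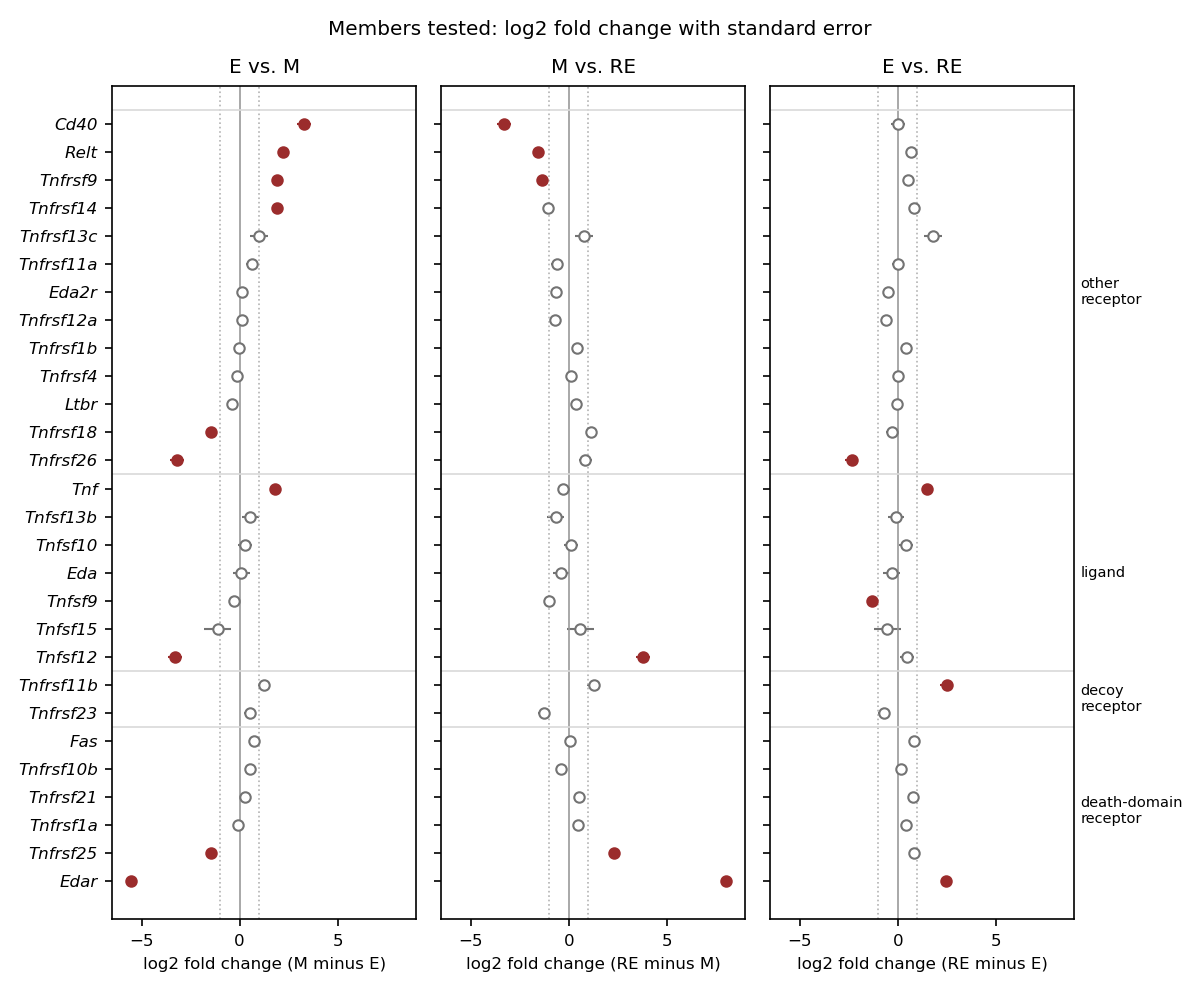
Log2 fold change with its standard error for the 28 members tested (rows, grouped by role) for E vs. M, M vs. RE and E vs. RE, with dotted lines at the fold threshold and filled points for members that were called. The *Edar* points of −5.55, 8.02 and 2.48 lie farthest from 0 in the first 2 panels, and most unfilled points lie between the dotted lines.

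Levels were compared between members per length, as ppm per kb of the exons that GENCODE M21 gives for each gene, which is a newer annotation than the build used for mapping. *Tnfrsf12a*, *Ltbr* and *Tnfrsf1a* were the highest members in each stage. In E they were at 76.9 ± 13.4, 68.3 ± 2.93 and 62.0 ± 0.855 ppm per kb (SD, n = 2), of which *Tnfrsf12a* and *Ltbr* did not differ beyond their spread, and in RE *Tnfrsf1a* came first at 81.6 ± 0.691, before *Ltbr* (67.6 ± 1.95) and *Tnfrsf12a* (50.4 ± 4.63). *Fas* came 4th in all stages, at 16.1 ± 3.61 in E and 28.2 ± 2.47 in RE, and in E it did not differ beyond its spread from *Tnfrsf10b* (15.1 ± 0.693). *Edar* was 13th in E (2.36 ± 0.233), 28th in M (0.0237 ± 0.00508) and 7th in RE (13.4 ± 2.58), where *Tnfrsf21* (11.7 ± 1.30) lay within its spread. *Relt* moved from 15th in E to 7th in M (8.82 ± 0.22), and osteoprotegerin from 11th in E to 5th in RE (22.6 ± 11.3). These later places were not resolved. In M, *Relt* lay within the spread of *Tnfrsf23* (9.87 ± 2.31) and osteoprotegerin (8.77 ± 0.932). In RE, the spread of osteoprotegerin took in *Fas*, *Tnfrsf10b* (16.8 ± 0.362), *Edar* and *Tnfrsf21*. The highest ligand was *Tnfsf12* in E and RE (7.47 ± 2.88 and 10.1 ± 1.92) and *Tnfsf9* in M (3.67 ± 0.435). In E the spread of *Tnfsf9* (4.57 ± 0.608) overlapped that of *Tnfsf12*.

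**Figure D4:**
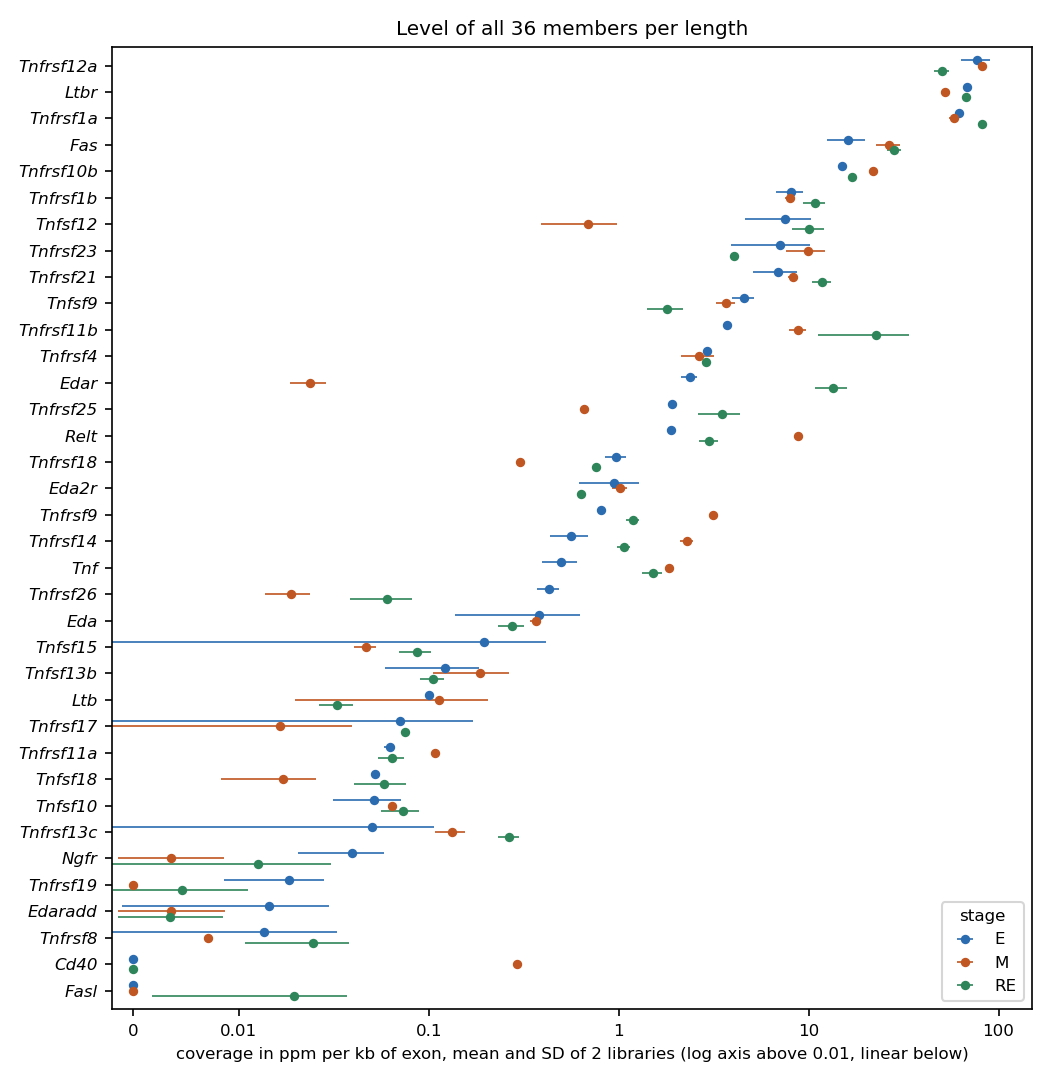
Coverage of all 36 members in ppm per kb of exon, as mean and SD of the 2 libraries of each stage, in the order of the E cells, on an axis that is logarithmic above 0.01 and linear below. *Tnfrsf12a*, *Ltbr* and *Tnfrsf1a* stay at 50.4 or above in every stage, and *Edar* runs from 0.0237 in M to 13.4 in RE.

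Genes that carry the signal behind the receptors were taken from a further list. Of 34 adaptors, kinases, caspases and inhibitors listed, 31 were in the table and 30 were tested, and 2, 1 and 2 were called in E vs. M, M vs. RE and E vs. RE, each higher in the later stage, where 16.8%, 12.7% and 9.08% of all genes were called. *Tnfaip3*, the A20 feedback inhibitor of TNF signalling to NF-κB, was at 86.2 and 161 ppm in E, 91.8 and 90.7 in M and 348 and 310 in RE, with log2 fold changes of 1.85 for M vs. RE (limma adjusted p = 0.00218) and 1.48 for E vs. RE (limma adjusted p = 0.00725). *Xiap*, a caspase inhibitor, was at 11.3 and 13.7 ppm in E and between 30.5 and 36.4 in M and RE (1.35 for E vs. M, adjusted p = 0.000827, and 1.42 for E vs. RE, adjusted p = 0.00152, by limma). *Birc3*, a ubiquitin ligase bound to TRAF2, was at 18.8 and 20.97 ppm in E, 46.7 and 44.6 in M and 32.1 and 31.0 in RE (1.2 for E vs. M, limma adjusted p = 0.000542). The median log2 fold change of the list was 0.36, −0.14 and 0.19 in the 3 comparisons.

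Of 8 genes that process or shed the ligands and receptors, 6 were in the table and tested, with a median of 0.40, −0.18 and 0.52. *Adam10*, a sheddase, rose from 91.3 and 112 ppm in E to 310 and 306 in M (1.61, limma adjusted p = 0.000235) and was at 197 and 172 in RE. *Furin*, the convertase that releases ectodysplasin, was at 99.95 and 128 ppm in E, 346 and 359 in M and 172 and 188 in RE (1.64 for E vs. M, limma adjusted p = 0.00024). Neither was called in the other comparisons. Of the family members with other symbols, *Lta* and *Cd27* were in the table, at 0.252 to 0.9999 and 0.233 to 0.907 ppm, and were not called.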

How the data were processed

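RNA of E, M and RE stages of EpH4 cells was sequenced on an Illumina Genome Analyzer with 2 libraries per stage, 6 in all. The authors mapped unique reads to the NCBI-m37 mouse genome with Bowtie and TopHat2. They deposited 1 table of whole numbers, read here as coverage (signal), that is, bases summed per gene. Low values (1 to 400) were whole multiples of 50 in 44.8% to 48.4% of cases per library, the length of 1 read. The counting step, its annotation and its use of strand are not given in the sources used here. The edgeR test of the study's methods needs read counts and was not run.

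Coverage was scaled by library totals and unweighted TMM factors over the genes tested (0.875 to 1.12, with trims of 30% on the log ratios and 5% on the mean levels). A gene needed 500 or more bases in 2 or more libraries to be tested, with limma 3.58.1 (R 4.3.3) on log2(ppm + 0.1), all libraries in 1 fit without a replicate block, with a trend and Benjamini-Hochberg adjustment. Exon lengths, overlaps and shared 50-base words came from GENCODE M21, matched by symbol for 36 of 36 members.

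The members, the pathway lists and the marker lists were chosen with earlier results of these data known. Members called in any comparison, and the ectodysplasin genes, are given by library, and the others by range or group. From the pathway lists, called genes are named. The library values of other members, and the genes of short lists that were not called, were added after their values were seen. The 18 alternative settings were other thresholds, scalings, filters and pseudocounts, the replicate block, a fit restricted to the pair of groups, no trend, array weights and leaving out each library. Libraries with the same number deviated from their group means with a correlation over genes of 0.267 (E and M), 0.0579 (E and RE) and 0.116 (M and RE), so the numbers were not taken to pair the libraries.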

Additional observations from a re-analysis of the deposited data

How the results depend on the processing

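Of the 21 calls on members, 8 held in every setting that tested the gene, and no call reversed its direction in any of the 18 settings. At an adjusted p of 0.05, and with array weights, 5 members were called higher and 6 lower in M vs. RE. The same numbers came from a fit of only the 2 groups compared. Of all 13893 genes, 1398 were called higher and 901 lower at an adjusted p of 0.05. Array weights gave 1452 and 958, and the fit of 2 groups 1397 and 908, against 1100 and 666 in the calls used above. In E vs. RE the fit of 2 groups left 1 member higher and 0 lower, beside 320 and 142 of all genes. Array weights left 0 members lower, beside 339 of all genes, where the calls used above were 823 higher and 439 lower. In the fit of all libraries, 15 members had an unadjusted p under 0.05 by limma in E vs. RE. This was not counted over all genes, so it is no result about the family. Members called lower in E vs. RE numbered 1 with no filter, the minimum in every library, a pseudocount of 1, no trend and the replicate block. All genes called lower there numbered 334, 371, 355, 342 and 426 in these settings, against 439 in the calls used above. The minimum in every library left 3 lower in E vs. M, since *Edar* and *Tnfrsf26* were then not tested. It left 912 of 12184 genes lower there, against 1160 of 13893. With the replicate block, *Tnfsf9* was lost in E vs. RE (adjusted p = 0.0107 by limma) and *Tnfrsf23* gained in M vs. RE (0.00836), and it changed no other call. Without 1 library at a time, the members called ranged from 2 to 6 higher and 3 to 6 lower in E vs. M, from 3 to 5 and from 0 to 6 in M vs. RE, and from 0 to 5 and from 0 to 4 in E vs. RE. A library left out leaves its stage with 1 sample, assumed to vary like the others, and without an M library *Cd40* is not tested. All genes called, both directions together, rose in number in each comparison without an E library. They fell in number without an M or an RE library. The ranges of members called are therefore by themselves no trait of the family. Library totals in place of TMM shifted the median of all genes to −0.29 in E vs. M and 0.18 in M vs. RE and the share of calls that were higher from 50.2% to 30.5% and from 62.3% to 73.8%. Under them *Eda* and *Eda2r*, not called in either case, reversed in E vs. M to −0.19 and −0.16. Without the first and the second E library, *Eda* was −0.58 and 0.73 and *Eda2r* −0.22 and 0.46 in E vs. M, and *Eda* was −0.98 and 0.34 in E vs. RE. The 2 libraries per stage limit the precision, and so does depth where a member has few reads' worth, as for *Edar* in M, *Tnfrsf26* in M and RE, *Cd40* in E and RE, *Tnfrsf13c* in E and *Tnfsf15* in M.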

Other observations

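Some members lie next to each other by the order of protein-coding genes in RefSeq's GRCm38.p6. *Ltb* and *Tnf* have no coding gene between them, and *Tnf* rose in M while *Ltb* stayed at 0.0333 to 0.210 ppm, too low to test. *Ltbr* and *Tnfrsf1a*, with 1 coding gene between them, were at 68.3 ± 2.93 and 62.0 ± 0.855 ppm per kb in E, and *Ltbr* was lowest in M and *Tnfrsf1a* highest in RE, neither of them called. *Tnfrsf26* and *Tnfrsf23*, also 1 gene apart, were at 0.0187 ± 0.005 and 9.87 ± 2.31 ppm per kb in M (SD, n = 2), and the coverage of *Tnfrsf23* is uncertain for the words it shares with *Tnfrsf22*.

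Of the other marker lists, all 5 fibroblast genes were called higher in RE than in E, and their summed level was 136 and 167 ppm in the E libraries, 1131 and 995 in M and 1243 and 1063 in RE. In M, *Col1a1*, *Col1a2* and *Pdgfrb* were called higher than in E, *Pdgfra* was not called and *Dcn* was called lower, with 0 and 14 bases in the M libraries. From M to RE, *Dcn* and *Pdgfra* were called higher and *Col1a1* lower. Of 4 endothelial genes 2 were tested. *Cdh5* was called higher in M than in E and lower in RE than in M (log2 fold changes 4.52 and −3.81, adjusted p = 0.000101 and 0.00024 by limma). It was at 2.32 and 2.09 ppm in M and at most 0.0907 elsewhere. *Cdh5* thus passed the coverage filter through the M libraries alone, and the size of its fold changes depends on the pseudocount. *Pecam1* was tested and not called (0.51 for E vs. M, limma adjusted p = 0.269). *Tek* went the other way, at 0.254 and 0.192 ppm in E, 0.0954 and 0.171 in M and 0.0838 and 0.0839 in RE, and *Kdr* was at or under the floor in every library. The part of these marker lists in the results on the TNF superfamily was not tested.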
